A study of Mus musculus with 3 samples.

Results

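Late regions of the forelimb mesenchyme were defined as open chromatin regions that had been called at both later stages but not at the earliest stage. The peak lists of 3 single-nucleus ATAC-seq libraries were merged wherever peaks overlapped by at least 1 bp. A late region was an autosomal merged region with a peak in the E14.5 list and in the E16.5 list and with none in the E12.5 list. There were 7356 late regions among 260778 autosomal regions. The number depended on the rule, with 2896 when the late peaks had to overlap each other by 50% and 13239 when all peaks had to be open in at least 1% of nuclei. They made up 7.86% of the 93577 autosomal regions with an E14.5 peak and 3.56% of those with an E16.5 peak. A further 170 such regions on the sex chromosomes were not included. Because the members were chosen by these peak calls, their levels at E14.5 and E16.5 are given as a description. The main comparison set was the 82930 autosomal regions called at all 3 stages, termed shared regions.

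All 3 libraries came from tdTomato+ mesenchymal progenitors (MPs) sorted from C57BL/6J embryos of the genotype Hic1CreERT2/CreERT2;Rosa26LSLtdTomato/tdTomato. The dams had received 7.5 mg tamoxifen by gavage on embryonic day 10, so the reporter marks cells in which the Hic1 locus drove CreERT2 at about that time, together with their descendants. Whole forelimbs were used at E12.5 and E14.5, whereas the E16.5 library came from the segment around the elbow joint, comprising the distal stylopod and proximal zeugopod. Per the methods of the study, E12.5 limbs were digested with Dispase and later limbs with Collagenase A, Pronase and DNase, and the sort removed cells bearing CD31, CD45, CD117, Ter119, CD11b or F4/80. Embryos of both sexes were used together, and the number of embryos behind each library is not given in the sources used here. Each stage had 1 library, hence no replicates and no test between stages, and stage and library cannot be told apart. Nor can digestion be told apart from the step between E12.5 and the later stages, or limb segment from the step between E16.5 and the earlier ones.

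The E12.5 library held 8294 nuclei with a median of 6003.5 cut sites in called peaks. The E14.5 library held 20023 with a median of 8575, and the E16.5 library 14048 with a median of 26694. From 151 to 401 cell barcodes were shared by pairs of libraries. As a check of the labelled cell type, mesenchymal promoters were open in both later libraries, with Pdgfra, a growth factor receptor of MPs, in 29.5% of E14.5 nuclei and 24.9% of E16.5 nuclei at equal depth. The Hic1 promoter was open in 27.0% and 24.1%. No promoter peak was called at either stage for Ptprc, the gene of the CD45 antigen used in the sort. The endothelial gene Pecam1 had none at E14.5 and one open in 0.374% of nuclei at E16.5. The epithelial gene Epcam was open in 4.80% and 3.23%, the muscle regulator Myod1 in 1.201% and 1.52% and the Schwann cell factor Sox10 in 1.31% and 1.11%, so promoters of other cell types were not all at 0. Their part in the results below was not tested, but late regions in nuclei rich in such loci are described at the end.

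Open chromatin away from promoters largely consists of enhancers, stretches of DNA at which transcription factors bind and from which they act on genes that can lie far away. Nuclear factor I (NFI) proteins, encoded by Nfia, Nfib, Nfic and Nfix, bind DNA as dimers and are known for their part in the maturation of many tissues. The word TTGGCA, termed the NFI core here, covers only a part of the site that a dimer binds. Matches to the full paired site are not described. Activator protein 1 (AP-1) dimers of FOS and JUN proteins bind TGANTCA and are known as a common feature of enhancers in fibroblasts.

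The sequences below are the central 200 bp of the E14.5 peak of 8 late regions, on the plus strand of GRCm38. They were chosen by their level, their change or their restriction to a set of nuclei, all described later. Capitals mark every match to TTGGCA (or TGCCAA, its complement) and to TGANTCA. The first 5 hold TTGGCA, which was more frequent in late than in shared regions, and the last 3 do not. They lie in an intron of Fam129a at chr1:151580578-151580777, across the promoter of Aoc3 at chr11:101330479-101330678, between genes with Cd36 as the nearest at chr5:17753701-17753900, between genes near Gjc3 at chr5:137966584-137966783, and in introns of Zbtb20 at chr16:43432956-43433155, Borcs5 at chr6:134696101-134696300 and Wdr1 at chr5:38558290-38558489. The last lies between genes, with Cblb as the nearest, at chr16:51718852-51719051.
Fam129a: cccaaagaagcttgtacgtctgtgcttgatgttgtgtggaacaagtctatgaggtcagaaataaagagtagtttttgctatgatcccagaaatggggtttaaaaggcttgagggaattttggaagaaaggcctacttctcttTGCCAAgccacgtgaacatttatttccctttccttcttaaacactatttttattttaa
Aoc3: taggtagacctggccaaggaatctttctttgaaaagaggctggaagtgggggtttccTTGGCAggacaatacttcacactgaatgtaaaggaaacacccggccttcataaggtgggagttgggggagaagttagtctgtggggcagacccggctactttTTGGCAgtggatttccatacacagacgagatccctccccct
Cd36: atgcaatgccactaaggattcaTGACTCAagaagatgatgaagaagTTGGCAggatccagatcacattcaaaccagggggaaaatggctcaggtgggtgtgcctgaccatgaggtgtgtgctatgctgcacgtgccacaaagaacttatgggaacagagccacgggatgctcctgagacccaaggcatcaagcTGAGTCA
Gjc3: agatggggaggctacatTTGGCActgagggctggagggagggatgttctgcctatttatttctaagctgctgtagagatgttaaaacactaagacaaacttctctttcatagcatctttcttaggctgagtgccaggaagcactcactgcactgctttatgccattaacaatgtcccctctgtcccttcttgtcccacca
Zbtb20: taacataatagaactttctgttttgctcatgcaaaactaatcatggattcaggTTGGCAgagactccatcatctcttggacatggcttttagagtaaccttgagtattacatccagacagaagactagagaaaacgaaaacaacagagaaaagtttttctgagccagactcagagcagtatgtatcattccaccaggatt
Borcs5: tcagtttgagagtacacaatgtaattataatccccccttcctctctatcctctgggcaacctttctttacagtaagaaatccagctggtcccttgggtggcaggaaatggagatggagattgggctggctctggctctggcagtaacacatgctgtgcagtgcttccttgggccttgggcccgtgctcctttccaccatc
Wdr1: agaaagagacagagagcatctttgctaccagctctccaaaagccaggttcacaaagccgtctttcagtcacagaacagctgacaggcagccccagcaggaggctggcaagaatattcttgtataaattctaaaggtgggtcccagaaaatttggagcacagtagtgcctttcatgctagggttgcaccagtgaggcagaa
Cblb: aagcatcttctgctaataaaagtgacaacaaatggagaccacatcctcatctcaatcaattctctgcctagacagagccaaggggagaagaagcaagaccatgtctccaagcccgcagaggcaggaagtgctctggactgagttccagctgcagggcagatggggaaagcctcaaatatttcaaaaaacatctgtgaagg

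The late regions lay mostly far from the start sites of protein-coding genes, in introns or between genes. Of 7356, 46.8% were intergenic (exact 95% interval 45.7 to 48.0), 45.3% lay in introns, 5.74% touched an exon and 2.16% (1.84 to 2.52) touched a promoter, which reached from 1000 bp before a start site of any annotated gene to 100 bp after it. At promoters of protein-coding genes it was 0.530%. Shared regions touched a promoter of any annotated gene in 19.7% of cases, regions called at E16.5 only in 2.96% and regions called at E12.5 only in 2.50%. The median distance from a late region to the nearest start site of a protein-coding gene was 63902.5 bp, against 31063 bp for shared regions and 39625 bp for E16.5-only regions. It was 63870 bp for E12.5-only regions, which was about as far. To the nearest start site of any gene, the median distance of late regions was 21617 bp. Only 12.4% of late regions lay within 10000 bp of the nearest start site of a protein-coding gene, and 38.8% lay more than 100000 bp from it. These intervals, and all those on shares below, cover counting error only.

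Members stood clear of the E12.5 peaks in most cases. The median gap to the nearest E12.5 peak was 3190 bp, and 218 members (2.96%) lay within 500 bp of one. The members just inside the rule lay 10 bp, 11 bp and 15 bp from an E12.5 peak, near Dlc1, Rpusd4 and Col6a5, and were open in 1.03%, 1.798% and 0.729% of E14.5 nuclei. Just outside it, regions near Plxna2, Ttc7b and Adcy2 overlapped an E12.5 peak by 1 bp and were open in 1.09%, 0.954% and 1.61%. The E12.5 list was longer than that of E14.5, with 190443 against 102459 peaks. No count exists for members at E12.5, since each table lists only the peaks called in its own library, so no upper limit can be set there.

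At E14.5 the typical member was a weak and narrow region. In 79 members the E14.5 peak was under 10 bp wide. No cut site was counted in 34 members at E14.5 and in 3 at E16.5. The median called width grew from 360 bp at E14.5 to 833 bp at E16.5, against 666 bp and 1177 bp in shared regions. Per kb and nucleus, members had a median of 0.0541 cut sites in the E14.5 library and 0.103 in the E16.5 library, against 0.0695 and 0.128 in shared regions. The median member was open, meaning with at least 1 count, in 1.12% of E14.5 nuclei (5th to 95th percentile 0.195% to 3.12%) and in 4.17% of E16.5 nuclei (1.096% to 12.8%). Because E16.5 nuclei held more cut sites in called peaks, shares were also computed with each nucleus thinned to 2410 fragments in shared regions. This left out 5003 E14.5 nuclei and 1232 E16.5 nuclei. The thinned medians were 0.552% for the E14.5 and 0.924% for the E16.5 library, against 1.24% and 1.52% in shared regions. The thinned share was higher at E16.5 than at E14.5 in 74.6% of members and in 54.3% of shared regions. Of a nucleus's fragments in shared regions, a median of 54.5% at E14.5 and 47.1% at E16.5 lay at promoters, which few members touched. Levels of shared regions outside promoters were not computed. The part of this promoter shift in the equal-depth values was not tested. Called widths differ between the libraries, so a part of a region that was called in only 1 of them adds counts there alone.

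**Figure D1:**
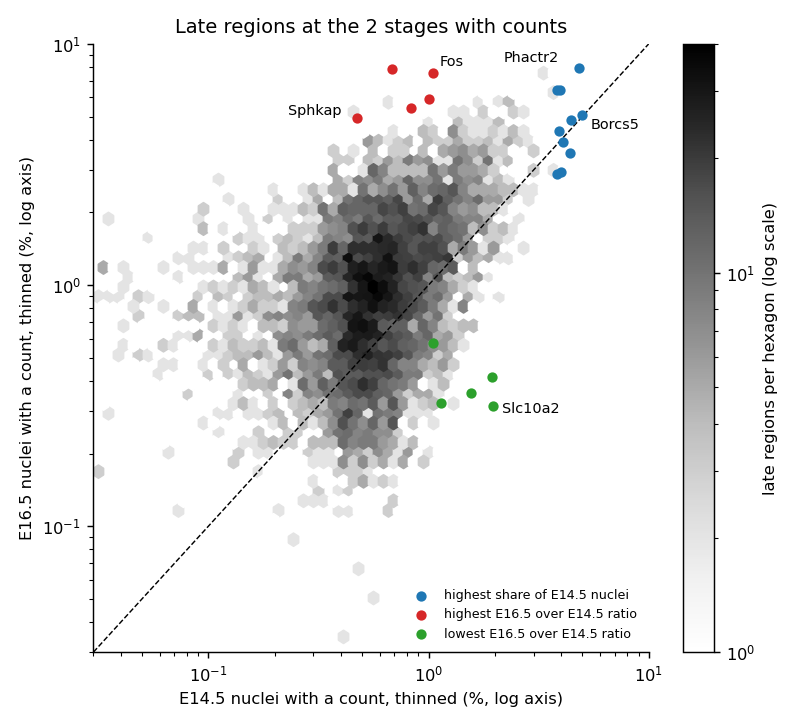
Thinned share of nuclei with a count at E14.5 (x axis) and at E16.5 (y axis) for late regions, both axes logarithmic in percent, with the number of regions per hexagon in grey and the dashed line at equal shares. Blue points are the 10 regions with the highest E14.5 share, red points the 5 with the highest and green points the 5 with the lowest E16.5 over E14.5 level; 178 regions with a share under 0.03% are not drawn, and the Fos region rises from 1.05% to 7.59%.

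Per kb and per 1000000 cut sites in shared regions (CPM per kb), the level of members moved less clearly. The median log2 ratio of CPM per kb, E16.5 over E14.5, was -0.33 in members and -0.55 in shared regions. On this scale 201 of 7319 members with counts at both stages (2.75%) were at least 2-fold higher at E16.5, where 0.856% of members and shared regions together were, and 1006 (13.7%) were at least 2-fold lower, where 17% were. Relative to the shared median the balance turned over. Then 862 of 7319 members (11.8%) were at least 2-fold higher at E16.5, where 4.22% of members and shared regions together were. At least 2-fold lower were 91 members (1.24%), where the background was 2.0%. When only the 2894 members were used whose E14.5 and E16.5 peaks each covered at least 50% of the other, the medians were -0.58 in members and -0.55 in shared regions, so members lay slightly below shared regions there. The called width itself grew more in members, with a median log2 ratio of 1.19 against 0.63. CPM per kb and the shared median both rest on shared regions, whose promoter part differed between the libraries. Its part in these ratios was not tested.

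Of the 10 most widely open members at E14.5, 5 lay in introns and 1 at a promoter. A region in an intron of Borcs5, whose product takes part in lysosome positioning, was open in 9.57% of E14.5 nuclei (9.16 to 9.98) and 19.9% of E16.5 nuclei. At equal depth these shares were 4.96% and 5.08%, while its called width grew from 1215 bp to 2805 bp and its log2 ratio of CPM per kb was -1.17. A region in an intron of Phactr2 (chr10:13363080-13364844), which encodes a regulator of actin and protein phosphatase 1, was open in 9.25% and 28.9%, and at equal depth in 4.85% and 7.96%. Another (chr5:119916306-119917501) lay 82222 bp from the start site of Tbx5, the T-box factor that specifies the forelimb, over an exon of the noncoding gene Gm43269. It was open in 8.90% and 19.2% of nuclei, and at equal depth in 4.45% and 4.82%. An intronic region of Gli3 (chr13:15531103-15532586), a transcription factor of hedgehog signalling that patterns the limb, was open in 7.69% and 17.8%, with 3.91% and 4.35% at equal depth. The other intronic members of this group lay in Fam129a (8.22% and 17.0%, or 4.08% and 3.92% at equal depth) and Cacng4 (7.62% and 12.2%, or 3.85% and 2.89%). Of the remaining members, that near Spink2 was open in 7.31% and 25.01% of nuclei, or 3.82% and 6.43% at equal depth. That over an exon of Atxn7l2 was open in 8.61% and 15.2%, or 4.37% and 3.54% at equal depth. Slc27a6, a fatty acid transporter gene, was the nearest to a member open in 7.80% and 11.8%, or 3.98% and 2.95%. In Fam129a, Cacng4, Atxn7l2 and Slc27a6 the share was thus higher at E16.5 as counted and lower at equal depth. At equal depth, Phactr2, Spink2 and Aoc3 had the higher shares at E16.5 of these 10, from 6.43% to 7.96%, and those near Cacng4 and Slc27a6 the lower ones, 2.89% and 2.95%.

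Few members touched a promoter. At promoters of any annotated gene, members (2.16%) lay near E16.5-only (2.96%) and E12.5-only (2.50%) regions and below shared regions (19.7%). For promoters of protein-coding genes the share is given for members alone. Only 39 members (0.530%) touched a promoter of a protein-coding gene. The most open was that of Aoc3, a cell-surface amine oxidase gene, with 2 E14.5 peaks, open in 7.91% of E14.5 nuclei and 24.6% of E16.5 nuclei, and at equal depth in 3.98% and 6.44%. Its central window, printed above, holds TTGGCA at 2 places. The promoter of Clec3b, which encodes tetranectin, a protein of the connective tissue matrix, was open in 2.11% and 19.3%, and at equal depth in 1.04% and 4.68%. That of Ndn, the gene of the growth regulator necdin, was open in 1.69% and 11.5%, or 0.818% and 2.60% at equal depth. Clec3b and Ndn were picked out after the values had been seen.

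The largest rises per kb from E14.5 to E16.5 were found in regions whose E14.5 peak, of 379 bp to 776 bp, was far narrower than their E16.5 peak, of 1374 bp to 3156 bp. These were taken from the 4244 members with 1 peak at each stage and at least 200 fragments in both libraries, and log2 ratios are given relative to the shared median. A region at chr12:85532065-85533885, 59130 bp from the start site of Fos, the AP-1 subunit gene, inside the noncoding gene Gm32296, had a log2 ratio of 2.28. It was open in 2.14% of E14.5 nuclei and 28.7% of E16.5 nuclei, or 1.05% and 7.59% at equal depth. The region with Cd36, a fatty acid receptor gene, as its nearest gene had a log2 ratio of 2.21 and was open in 1.96% and 22.5%, or 1.01% and 5.90% at equal depth. Its window holds both a TTGGCA and 2 TGANTCA matches, the only one of the 8 printed that holds both. The others had Sphkap (2.21), Plpp3 (2.09) and Lats2 (2.08) as their nearest gene. The region of Lats2 (chr14:57706567-57709722), a kinase of the Hippo pathway, lay in its intron, which overlaps Gm49361, and was open in 1.39% and 28.1% of nuclei, or 0.683% and 7.88% at equal depth.

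The falls were smaller relative to the shared median, but of about the same size as the rises on CPM per kb itself, where Angpt1 had a log2 ratio of -1.77 and Fos 1.73. A region in an intron of Angpt1 (chr15:42546722-42547592), which encodes a ligand of the TIE2 receptor, had a log2 ratio of -1.22 and was open in 3.12% of E14.5 nuclei and 1.74% of E16.5 nuclei, or 1.56% and 0.357% at equal depth. A region near Slc10a2 had -1.16 and was open in 3.73% and 1.34% (1.96% and 0.314% at equal depth), and a region in an intron of Sbspon had -1.13 and was open in 2.202% and 1.57% (1.14% and 0.323% at equal depth). The remaining 2 had D3Ertd751e (-1.21) and D3Ertd254e (-1.18) as their nearest genes. The region near D3Ertd751e was open in 2.09% and 2.61% of nuclei, so its unthinned share did not fall, and at equal depth it was open in 1.04% and 0.573%.

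Of 23 autosomal genes that the study used to describe its clusters of nuclei, 10 were nearest to at least 1 member, where 18.8% of all autosomal protein-coding genes were. These genes had many regions each, and 31 of their 315 E14.5 regions were members (9.84%, 6.79 to 13.7), an interval that includes the 7.86% of all such regions. The genes were chosen by the study on these samples. Osr1, a transcription factor gene of limb connective tissue progenitors, was nearest to 8 members out of 40 E14.5 regions. They lay from 16820 bp to 364938 bp from its start site and were open in 0.0449% to 3.45% of E14.5 nuclei and in 2.04% to 13.6% of E16.5 nuclei. The most open of the Osr1 members (chr12:9915503-9916744), 341506 bp away, held TTGGCA and rose from 1.69% to 3.10% at equal depth. Sox9, the master regulator gene of cartilage, was nearest to 8 of 79 regions, all at 42373 bp or more, and none of these passed 1.52% of E14.5 nuclei or 4.81% of E16.5 nuclei. At equal depth, 3 of the Sox9 members had lower values at E16.5, such as 0.535% against 0.249% for the region 380519 bp away.

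Hic1 itself, the gene that drives the reporter, was nearest to 3 of 14 regions, all of them in introns of Smg6. The Hic1 members, 37054 bp to 52936 bp from the start site, were open in 0.624% to 1.04% of E14.5 nuclei and 1.97% to 3.26% of E16.5 nuclei. At equal depth, that 52936 bp away was open in 0.497% and 0.404%, and the closest to Hic1 in 0.2504% and 0.825%. Kcnj8, a potassium channel gene of pericytes, had 1 member at 13597 bp, open in 2.97% and 13.6%, or 1.41% and 3.41% at equal depth. This Kcnj8 member lay 135 bp from an E12.5 peak. Irx1, a homeobox gene of the dermal fibrogenic nuclei, had 2 members, and the one 293623 bp away was open in 1.99% and 12.5%. Postn, the matrix protein periostin, had 3 members at 113252 bp or more, the most open of them in 1.28% and 8.47%. Lrig1 and Cldn1 had 2 members each, and Cd34 and Lef1 had 1 each. Acan, Chad, Col2a1, Col7a1, Id1, Kera, Ly6a, Rgs5, Rspo1, Scx, Snai1, Thbs4 and Wnt6 had none. Each of these had few E14.5 regions, from 1 at Chad to 11 at Thbs4. At 7.86% over all E14.5 regions, having none says little about any 1 of these genes.

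In all, 3916 of 20807 autosomal protein-coding genes (18.8%) were nearest to at least 1 member, 1580 to at least 2 and 258 to at least 5. The genes with the most members were Intu, with 17 of 77 E14.5 regions, Slc4a3 with 15 of 80, Adgrl3 with 14 of 65, Adgrl2 with 13 of 118, and Fat4 and Celf4 with 12 each. Intu is needed to form primary cilia, Adgrl2 and Adgrl3 are adhesion receptors of the latrophilin family, and Fat4 is an atypical cadherin. Celf2 had 11, and Bckdhb, Trib2 and Auts2 had 10. In these 10 genes the share of members among the E14.5 regions ran from 8.62% in Auts2 to 24.4% in Celf2. Among genes with at least 8 E14.5 regions, the highest share was that of Cbln2 (5 of 9). Adamts6 and Ctnna2 (6 of 12 each) and Sst and 4930470P17Rik (4 of 8 each) were at 50%. They were followed by Fam84a (5 of 11), Baiap2l1 and Tac1 (4 of 9 each) and by Prelid2 and Hgf (5 of 12 each). All of these genes had only 8 to 12 E14.5 regions, near the floor of 8, so their shares rest on few regions. Over all autosomal E14.5 regions the share was 7.86%. Hgf encodes the growth factor that attracts migrating muscle precursors into the limb. The nearest start site need not be the gene on which a region acts.

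The gene lists below were described by the share of members among the E14.5 regions nearest their genes, beside 7.86% over all such regions. Regions of 1 gene are not independent, so the exact intervals are too narrow. Fibroblast and connective tissue genes had 32 of 212 (15.1%, 10.6 to 20.6), with 13 of 22 genes nearest to at least 1, against 18.8% of all genes. This share of genes is not adjusted for the number of regions per gene. It was higher in some lists near the background by region. These were NFI and EBF factors (6 of 7 genes), dermal fibroblast (9 of 12), BMP and TGF-beta (17 of 23) and glucocorticoid-responsive genes (7 of 11). In the fibroblast and connective tissue list Col14a1, a collagen of mature connective tissue, had 6 of 20 and the proteoglycan gene Dcn 4 of 23. The growth factor gene Igf1 had 4 of 18 and Dpt, the dermatopontin gene of universal fibroblasts, 3 of 7. Perineurial genes had 8 of 41 (19.5%, 8.82 to 34.9), of which 5 belonged to Moxd1. Genes of matrix remodelling had 23 of 190 (12.1%, 7.83 to 17.6), of which 9 lay nearest to Adamts5, a protease of aggrecan, with 3 each at Adamts9 and Timp3.

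The other lists of mesenchymal genes lay near the background. Tendon genes had 21 of 199 (10.6%), with 8 at Tnc, 6 at Thbs2 and 2 each at C1qtnf3 and Col1a2. Cartilage genes had 29 of 294 (9.86%), with 8 at Sox9, 6 at Sox6, 5 at Hapln1 and 3 at Matn1. Bone-forming genes had 11 of 111 (9.91%), 5 of them at Runx2. Pericyte genes had 4 of 42 (9.52%), 2 of them at Abcc9. Progenitor genes had 35 of 378 (9.26%), with 8 at Osr1, 7 at Tcf4, and 6 each at Sox11 and Twist1. Dermal fibroblast genes had 19 of 211 (9.005%), with 4 at Axin2 and 3 each at Twist2 and En1. Limb patterning genes had 35 of 427 (8.20%), with 7 each at Tbx5 and Meis1 and 6 at Tbx15. BMP and TGF-beta genes had 34 of 436 (7.80%), led by the receptor gene Tgfbr2 with 6 and Ltbp1 with 5. The NFI and EBF factor genes had 19 of 250 (7.60%), 7 at Nfib, 5 at Ebf1 and 3 at Nfia. Glucocorticoid-responsive genes had 11 of 155 (7.10%), 3 of them at the receptor gene Nr3c1.

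Lists of other cell types, of early growth and of AP-1 and related genes had the lowest shares, with an exception. Fat cell genes had 3 of 57 (5.26%), AP-1 and related genes 5 of 117 (4.27%), epithelial genes 1 of 39 (2.56%), blood genes 2 of 101 (1.98%), growth timing genes 1 of 55 (1.82%), muscle genes 1 of 67 (1.49%) and Schwann genes 0 of 18, which allows up to 18.5%. The exception was the endothelial list with 13 of 120 (10.8%, 5.90 to 17.8), with 4 at Cdh5 and 3 each at Kdr and Emcn. Of these intervals, that of fibroblast and connective tissue genes lay above 7.86%, as did that of perineurial genes, and that of blood genes lay below it. All others included it, matrix remodelling by a small margin. Because these intervals are too narrow and many lists were compared, an interval clear of 7.86% is a description and not a call. Most of the perineurial members belonged to Moxd1 alone (5 of its 15 E14.5 regions).

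**Figure D2:**
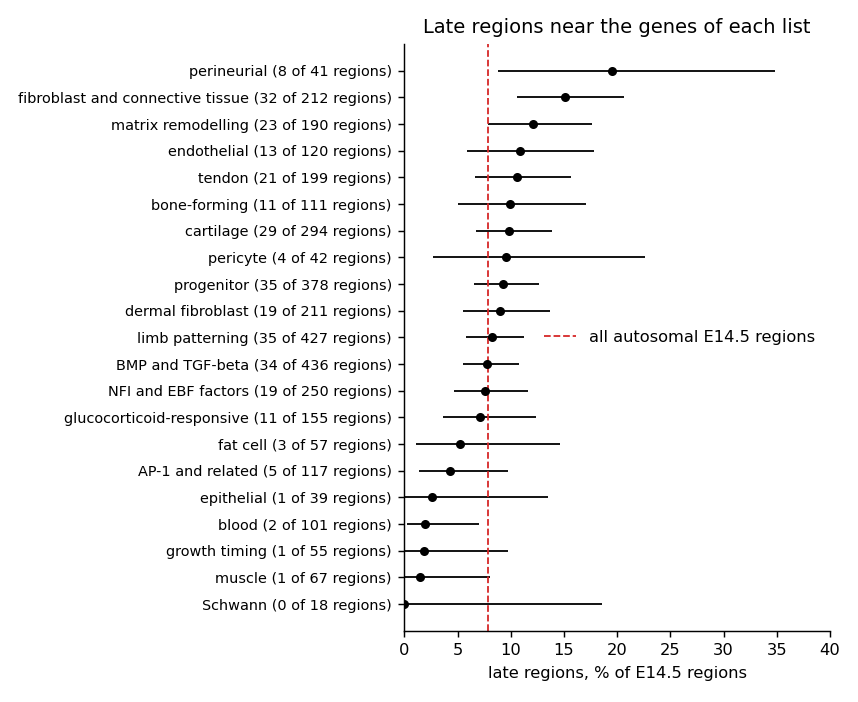
Percent of late regions among the E14.5 regions nearest to the genes of each list, with exact 95% intervals as bars and the 7.86% of all autosomal E14.5 regions as a dashed line. Fibroblast and connective tissue genes (15.1%) and perineurial genes (19.5%) lie to the right of the line with their whole interval, and blood genes (1.98%) to its left.

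Late regions held the NFI core more often than shared regions and than regions called at E16.5 only or E12.5 only. TTGGCA occurred in the central 200 bp of 35.6% of members (34.5 to 36.7), in 15.3% of all autosomal regions and in 14.2% of shared regions (13.9 to 14.4). It occurred in 22.8% of E16.5-only regions and in 6.86% of E12.5-only regions, the least of these classes. The window was centred on the E14.5 peak of late and shared regions, and on the peak of the calling library in the other classes.

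The difference was of similar size within bands of base composition and outside promoters. The median GC content of the window was 44.5% in members and 49.5% in shared regions. In windows of 40% to 45% GC, TTGGCA occurred in 38.3% of members (36.2 to 40.4) and 17.2% of shared regions outside promoters. With promoters kept in, it occurred in 23.3% of E16.5-only regions and 7.07% of E12.5-only regions. In windows of 50% to 55% GC the shares in the same sets and order were 34.9%, 15.4%, 21.7% and 6.89%. All 2080 words of 6 letters, each counted with its complement, were then compared. Members and shared regions were taken outside promoters, and E16.5-only and E12.5-only regions were taken whole. Of the 2036 that occurred in at least 1% of either set, TGCCAA, the complement of TTGGCA, had the highest ratio of members over shared regions, 2.25. It was followed by the overlapping words GCCAAA (2.02), CTTGGC (1.92) and AGCCAA (1.72).

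Matches lay near the centre of the peak. Late regions outside promoters held 2.53 matches to TTGGCA per kb in the 25 bp before the peak centre. Shared regions outside promoters held 0.947 there. E16.5-only regions held 1.52 and E12.5-only regions 0.346, both with promoters kept in. From 175 to 200 bp past the centre the values were 0.928, 0.660, 0.697 and 0.472. The E12.5-only regions thus held fewer matches at the centre than at their flanks, whereas the other 3 classes held more. Centres were midpoints of called peaks, and the median called width at E14.5 was 360 bp in late and 666 bp in shared regions. In E16.5-only regions it was 397 bp at E16.5. The part of peak width in the shares and positions of matches was not tested.

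**Figure D3:**
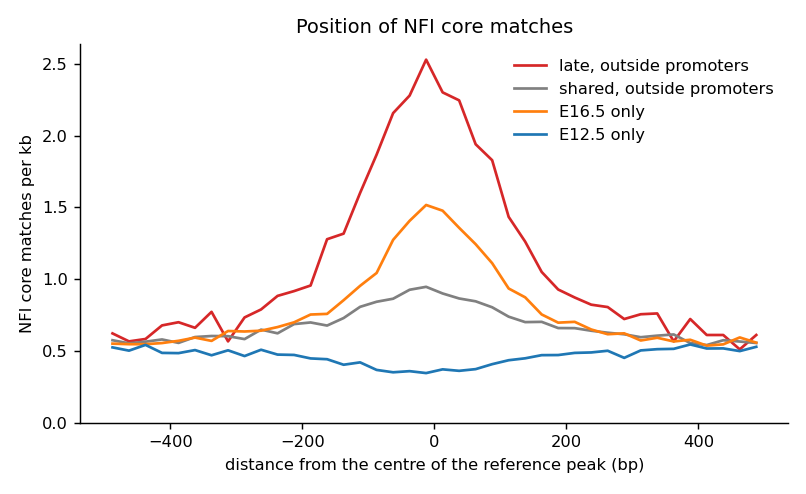
Matches to the NFI core per kb (y axis) in 25 bp bins by distance in bp from the centre of the reference peak (x axis), for late and shared regions outside promoters and for regions called at E16.5 only or E12.5 only. Late regions peak at 2.53 matches per kb at the centre, above the 1.52 of E16.5-only and the 0.947 of shared regions, while E12.5-only regions dip to 0.346.

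AP-1 motifs set the late regions apart from regions called at E16.5 only. TGANTCA occurred in 6.92% of members (6.35 to 7.52), in 8.35% of shared regions, in 21.2% of E16.5-only regions (20.9 to 21.5) and in 12.1% of E12.5-only regions. It occurred in 14.7% of all autosomal regions. Among the 2036 words, those with the lowest ratio of members over E16.5-only regions were GAGTCA (0.474) and GACTCA (0.479), both parts of the AP-1 motif. The word of the NFI core had rank 4 in the opposite direction, with a ratio of 1.56, and rank 1 over E12.5-only regions, with a ratio of 5.20.

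Among the other 17 motifs searched on both strands, those of GC-rich or boundary elements were rarer in members than in shared regions. GGGCGG of KLF and SP factors occurred in 2.84% of members and 13.8% of shared regions, the CTCF core CNAGNGGGC in 1.55% and 5.14%, CCGGAA of ETS factors in 1.63% and 5.13%, and CCCNNGGG of EBF factors in 4.70% and 8.55%. Over all autosomal regions these shares were 6.80%, 3.18%, 3.23% and 6.89%. Outside promoters the differences were smaller for KLF and SP (2.83% against 6.79%), ETS (1.63% against 3.18%) and EBF (4.65% against 6.92%) matches, while the CTCF core was at 1.54% against 4.79%. E16.5-only and E12.5-only regions had KLF and SP matches in 3.31% and 3.21% and CTCF core matches in 1.83% and 1.71%, close to the members. CACCTG, an E-box bound by SNAI repressors, occurred in 8.06% of members, 13.4% of shared regions, 17.5% of E12.5-only regions and 12.7% of all autosomal regions. With the letters in reversed order, shares differed similarly for KLF and SP (2.98% of members and 14.01% of shared regions). They also differed in the same direction for EBF (3.13% and 6.90%), the CTCF core (0.462% and 1.81%) and CACCTG (5.32% and 7.24%). For ETS they were 10.6% and 11.1%. Reversal removes the CpG of the ETS letters and adds a CpG to the CTCF core, so for these the comparison is not matched. The part of base composition in the lower shares was not tested.

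A few motifs were somewhat commoner in members than in shared regions. TTGCNNAA of CEBP factors occurred in 12.8% of members and 8.55% of shared regions, TGTGGT of RUNX factors in 17.4% and 14.2%, TTTATGG of posterior HOX factors in 4.81% and 3.41%, and ATCAAAG of TCF and LEF factors in 3.63% and 2.53%. CATCTG, an E-box of TWIST-like factors, occurred in 24.2% and 21.4%, and the steroid receptor motif ACANNNTGT in 7.22% and 5.84%. E16.5-only and E12.5-only regions held CEBP matches in 11.4% and 8.51%, RUNX in 17.1% and 15.7%, and posterior HOX in 3.06% and 4.38%. They held TCF and LEF matches in 3.45% and 2.79%, CATCTG in 23.9% and 23.4%, and the steroid receptor motif in 7.75% and 7.83%. The steroid receptor motif was thus more frequent in both of these classes than in members. Between members and shared regions, the same letters in reversed order differed similarly for the steroid receptor (6.59% and 5.53%) and for TCF and LEF (3.14% and 2.23%). They also differed in the same direction for posterior HOX (2.94% and 2.29%). They differed less for CEBP (2.94% and 2.91%), RUNX (10.5% and 10.8%) and CATCTG (4.15% and 4.01%). The reversed CEBP letters hold a CpG that the motif lacks, and windows held a mean of 2.24 CpG in members and 5.68 in shared regions. For CEBP this comparison is therefore not matched in base composition. TEAD (GGAATG, 14.6% and 14.8%), the E-box CAGCTG (15.8% and 17.0%), SOX (ACAAAG, 15.2% and 14.2%), homeodomain (TAATTA, 4.64% and 4.34%), forkhead (TGTTTAC, 2.12% and 2.65%) and SMAD (GTCTAGAC, 0.163% and 0.171%) motifs had shares close to those of shared regions. Outside promoters several of these comparisons changed. The shares were then 24.2% and 24.3% for CATCTG, 14.6% and 16.4% for TEAD, 15.8% and 18.2% for CAGCTG, 2.11% and 2.96% for forkhead, 15.1% and 15.4% for SOX, 4.65% and 5.04% for the homeodomain, and 7.21% (6.62 to 7.83) and 6.63% (6.44 to 6.82) for the steroid receptor motif. Over all autosomal regions the shares were 9.60% for CEBP, 15.8% for RUNX, 3.53% for posterior HOX, 2.91% for TCF and LEF, 23.0% for CATCTG and 7.09% for the steroid receptor motif. They were 16.4% for TEAD, 16.4% for CAGCTG, 15.6% for SOX, 5.08% for the homeodomain, 3.15% for forkhead and 0.207% for SMAD motifs. A match is a description of letters and not evidence of binding.

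**Figure D4:**
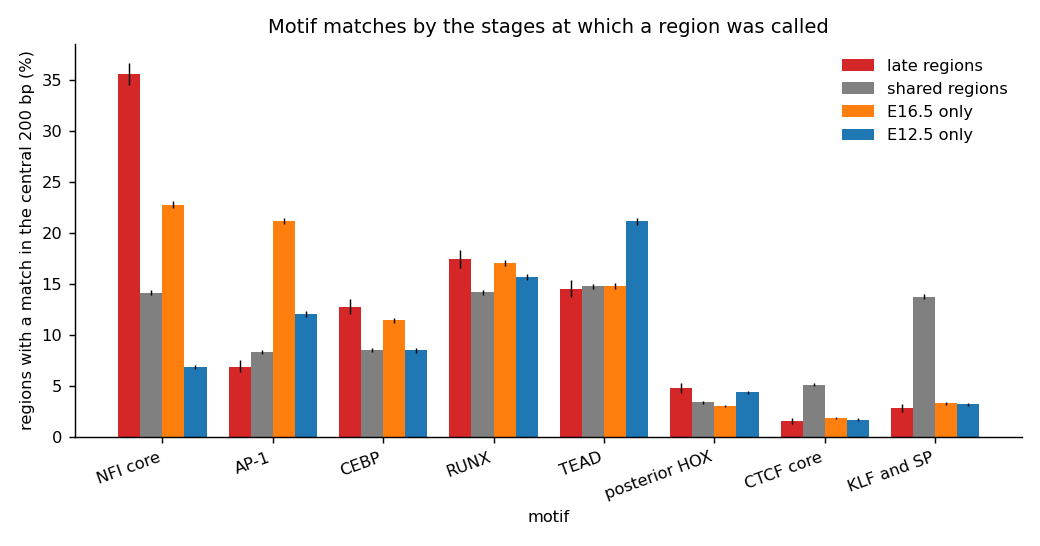
Percent of regions with at least 1 match in the central 200 bp (y axis, from 0) for 8 motifs, in late, shared, E16.5-only and E12.5-only regions, with exact 95% intervals. The NFI core stands at 35.6% in late regions against 14.2%, 22.8% and 6.86%, and AP-1 at 6.92% against 8.35%, 21.2% and 12.1%.

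Within the members, the NFI core was more frequent in regions with a higher level, and the AP-1 motif in regions with a higher E16.5 level or ratio. These values are over the 4308 members with at least 200 fragments in both libraries. From the lowest to the highest quartile of E14.5 CPM per kb, the share with TTGGCA went from 32.6% (29.8 to 35.5) through 34.4% and 40.4% to 43.5% (40.5 to 46.5). From the lowest to the highest quartile of the E16.5 over E14.5 ratio it went from 35.4% to 39.1%, with overlapping intervals. TGANTCA went from 4.83% (3.63 to 6.28) in the lowest quartile of that ratio to 9.01% (7.36 to 10.9) in the highest, and lay between 6.59% and 7.15% over the quartiles of E14.5 level. Over the quartiles of E16.5 CPM per kb, TGANTCA went from 4.36% (3.22 to 5.76) through 6.22% and 8.64% to 8.08% (6.52 to 9.87), and TTGGCA from 34.0% (31.2 to 36.9) to 41.2% (38.3 to 44.2). At equal depth, members with TTGGCA were open in a median of 0.751% of E14.5 nuclei and 1.21% of E16.5 nuclei, and members without it in 0.725% and 1.15%.

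A nucleus had a count in a median of 79 late regions at E14.5 and 334 at E16.5. Of a nucleus's fragments in late and shared regions, late regions took a median of 1.996% in the E14.5 library (5th to 95th percentile 0.871% to 3.49%) and 3.64% in the E16.5 library (1.75% to 5.25%). Of its cut sites the medians were 1.75% and 3.57%. The called width of late regions rose from 2.86 Mb to 6.83 Mb, which was 3.62% and 5.23% of the called width of both sets. The share did not rise with depth at E14.5, where the shallowest quartile of nuclei had a median of 2.19% and the deepest 1.87%, and it was 3.61% and 3.74% in these quartiles at E16.5. Of all E14.5 and E16.5 nuclei, 1 had no count in any late region.

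To ask in which nuclei the late regions were open, nuclei were gated on marker loci. The gate took the 5% of nuclei with the highest share of fragments in shared regions over the marker genes, within each library and above the 25th percentile of depth. A gate thus held 751 or 752 nuclei of the E14.5 library and 527 or 528 of the E16.5 library, and members near the marker genes were left out. The gates on cartilage, tendon, fibrogenic and dermal fibroblast loci shared at most 65 nuclei in pairs. Gated nuclei were shallower than the others, with a median of 4531 against 5509 fragments for the cartilage gate at E14.5. Therefore all ratios were scaled to the fragments in shared regions.

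In total, late regions were more open in nuclei gated on fibrogenic loci (Dpt, Postn, Cd34, Clec3b, Pi16, Mfap5 and Ly6a, 6 of which had a region) than in other nuclei. At E14.5 the ratio was 1.06 (1.06 to 1.07), and at E16.5 it was 1.12 (1.11 to 1.12). The E14.5 value was close to those of gates on blood (1.05), endothelial (1.04) and muscle (1.03) loci. The fibrogenic gated nuclei were also shallower at E14.5, with a median of 4339 against 5543 fragments, and shallower nuclei had the higher share in late regions at that stage. The part of depth in this ratio was not tested. In nuclei gated on cartilage loci (Acan, Col2a1, Chad, Col9a1, Matn1, Snorc, Cnmd and Sox9) it was 0.941 (0.934 to 0.948) and 0.798 (0.795 to 0.802). In nuclei gated on dermal fibroblast loci (Col7a1, Rspo1, Irx1, Irx2, Twist2, En1 and Crabp1) it was 0.959 and 0.901. In nuclei gated on tendon loci (Thbs4, Kera, Scx, Mkx and Fmod) it was 1.004 and 1.01. The intervals cover counting error only, and nuclei of 1 library are not replicates.

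Single regions differed more than these sums. Over the members that passed 200 fragments in both libraries, the median log2 ratio at E16.5 was -1.24 in the cartilage gate and -0.91 in the dermal fibroblast gate, against -0.16 and -0.13 in shared regions. At E14.5 these medians were -0.35 and -0.25, against -0.06 and -0.03. The typical member was thus lower in these gates than the sums show, while some were higher. Of 4302 members that passed 200 fragments in both libraries, 290 (6.74%) were at least 2-fold higher in nuclei gated on cartilage loci at both stages, where 3.01% of members and shared regions together were. At least 2-fold lower at both stages were 766 (17.8%), where the background was 6.28%. In the dermal fibroblast gate 311 of 4307 (7.22%) were higher, against a background of 2.89%, and 331 (7.69%) were lower, against 2.40%. In the tendon gate 106 (2.46%) were higher, against 0.828%, and 76 (1.76%) lower, against 0.562%. In the fibrogenic gate 9 of 4303 (0.209%) were higher, against 0.0402%, and 103 (2.39%) were lower, against 0.516%. In these 4 gates, 685 members were higher at both stages in at least 1 gate and 31 in more than 1. A member held a median of 10 to 12 fragments in the gated nuclei at E14.5, so a 2-fold difference at that stage alone is within the reach of counting error. In every gate, shared regions made up most of the background. They held more counts, with a median of 2.52% of E14.5 nuclei against 1.12% over all members, so counting error weighs less on them. In the muscle gate, 55 of 4307 members and 293 of 70270 shared regions were at least 2-fold higher at E14.5. The part of counting error in these shares was not tested.

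The log2 ratios of gated over other nuclei ran together between the libraries. Across these members Pearson's r between E14.5 and E16.5 was 0.70 in the cartilage gate, 0.61 in the dermal fibroblast gate, 0.49 in the tendon gate and 0.43 in the fibrogenic gate. Across shared regions it was 0.67, 0.58, 0.41 and 0.29 in these gates. In gates on loci of muscle, endothelial, epithelial, blood and Schwann cells r was 0.06 to 0.18. These r values are across regions that share libraries, gates and base composition, and regions are not replicates.

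The regions that stood out in the cartilage gate differed strongly. A region in an intron of Wdr1, an actin disassembly factor gene, was open in 7.99% of gated and 1.06% of other nuclei at E14.5, and in 40.4% and 3.50% at E16.5. A region in an intron of Sdk2 (chr11:114031267-114032185), a cell adhesion gene, was open in 9.19% and 1.49% at E14.5 and in 53.9% and 5.85% at E16.5. One near Gjc3, a gap junction gene, was open in 7.19% and 0.939% at E14.5 and in 53.5% and 3.26% at E16.5. The windows of Wdr1 and Gjc3, printed above, hold 0 and 1 match to TTGGCA. Genes nearest to the most of the 290 were Tns1 and Tox, with 3 each.

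In the tendon gate the leading members described here lay in an intron of Zbtb20 and near Meox2, a homeobox gene of limb mesoderm. The Zbtb20 member was open in 3.60% of gated and 1.19% of other nuclei at E14.5 and in 13.3% and 3.66% at E16.5. For Meox2 the shares were 3.20% and 1.15%, then 8.73% and 1.89%. In the dermal fibroblast gate the leading members had Cblb, Gm11077 and Fat4 as nearest genes. The Cblb member was open in 3.99% of gated and 1.19% of other nuclei at E14.5 and in 18.4% and 3.55% at E16.5. For Fat4 the shares were 5.73% and 1.51%, then 18.9% and 5.28%, and for Gm11077 5.46% and 1.44%, then 21.6% and 4.88%. The fibrogenic gate had smaller differences, led by members near Rtp2 (2.40% and 1.28%, then 5.50% and 2.86%), in an intron of Agbl1 (2.26% and 1.18%, then 9.68% and 5.15%) and near Lars2 (3.33% and 1.997%, then 8.54% and 4.58%).

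**Figure D5:**
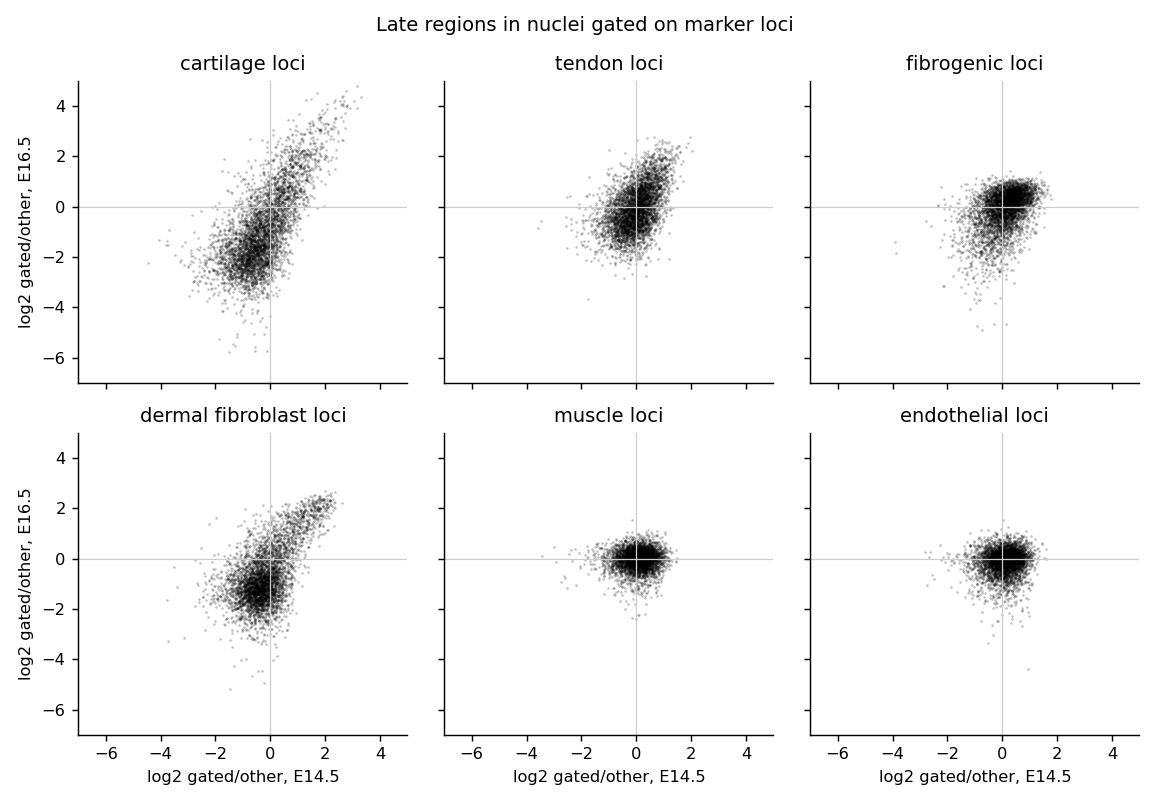
Log2 ratio of gated over other nuclei at E14.5 (x axis) and at E16.5 (y axis), scaled to fragments in shared regions, with a point for each late region of at least 200 fragments in both libraries, in 6 gates. Points run along a diagonal in the cartilage (r = 0.70) and dermal fibroblast (r = 0.61) gates and form a round cloud in the muscle and endothelial gates.

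The share with the NFI core differed between these sets of gated regions. TTGGCA was present in 43.4% of the 290 members higher in the cartilage gate and in 33.8% of the 766 lower ones, in 42.5% of the 106 higher and 22.4% of the 76 lower ones of the tendon gate, and in 21.5% of the 311 higher and 36.3% of the 331 lower ones of the dermal fibroblast gate. Over all members that passed 200 fragments it was 37.7%. Shared regions held it in 21.4% of those higher and 17.5% of those lower in the cartilage gate, in 15.2% of those higher and 20.4% of those lower in the dermal fibroblast gate, and over all shared regions of that depth in 14.01%. In late and in shared regions alike, the order of higher and lower ones was thus opposite in the dermal fibroblast and cartilage gates.

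Gates on loci of cell types outside the mesenchyme gave totals from 0.646 to 1.05. The ratio of late regions in gated over other nuclei was 1.03 and then 1.02 for muscle loci, 1.04 and 0.958 for endothelial loci, 1.05 and 0.998 for blood loci, 0.930 and 0.790 for Schwann loci and 0.957 and 0.646 for epithelial loci. In the epithelial gate, 5 of 4308 members (0.116%) were at least 2-fold higher at both stages, where 0.178% of members and shared regions were, and 125 (2.90%) were at least 2-fold lower, where 0.610% were. In that gate at E16.5, late regions took a median of 1.97% of a nucleus's fragments, against 3.69% in other nuclei. There a region near Tprg, open in 2.13% of gated and 1.30% of other nuclei at E14.5, was open in 43.5% and 10.3% at E16.5. The next members of that gate had Wwc1 and Ntn4 as nearest genes. The leading members of the remaining gates had Plxna4, Zfpm2 and Stxbp6 (muscle), Bbs9, Adgrb2 and Irf2 (endothelial), Dtnbp1, Fzd5 and Bbs9 (blood) and C130032M10Rik, Avl9 and Gm47985 (Schwann) as nearest genes, with log2 ratios from 0.85 to 1.54. Gated nuclei of these 5 sets held a median of 1 to 2 marker fragments at E14.5, against 0 in the other nuclei, so few fragments defined these gates there. The same holds for the fibrogenic gate, with a median of 2 against 0.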

How the data were processed

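For each nucleus and peak the authors deposited raw counts, that is, how many transposase cuts fell there. Per the labels, the authors used Cell Ranger ATAC 1.1.0 and mm10, whereas the headers name version 1.2.0 for the E16.5 matrix and 1.0.1 for the others. Each library had its own peak calls, without scores. All deposited barcodes were used, more than the nuclei given in the text of the study, and no doublet caller was run. Genes were those of GENCODE M21 (basic) on GRCm38, and genome sequence was that of RefSeq.

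Lists were merged with bedtools 2.31.1. Total cut sites were 413425059 in the E16.5, 204289151 in the E14.5 and 87048167 in the E12.5 library. A fragment was taken as 2 cut sites, rounded up. CPM were per 1000000 cut sites in autosomal shared regions, and ratios were given no value where either count was 0. A pseudocount of 1 cut site was added to gated ratios. Thinned shares are the expected values after drawing 2410 fragments per nucleus. Genomic position classes used the top E14.5 peak of a member. Gates used shared regions over the gene body and 2000 bp upstream, and members within 50000 bp of a marker gene were left out. The measures were tested on simulated data. Python 3.11.15, numpy 2.4.6, pandas 2.3.3 and scipy 1.17.1 were used.

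The members, gene lists, motifs and markers were chosen with earlier results of these data known. Regions and genes were named by rule: the 10 most open at E14.5, the 5 highest and 5 lowest ratios, the 10 genes with the most members and the 10 with the highest share, up to 4 genes of each list, 3 members of each gate, and the genes named in the study for its clusters. A few items that these rules name are not reported here.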

Additional observations from a re-analysis of the deposited data

Results flagged for a closer look

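The ratio of late regions in nuclei gated on endothelial loci over other nuclei stood on opposite sides of 1 at the later stages. At E14.5 it was 1.04 (95% counting interval 1.04 to 1.05), and at E16.5 it was 0.958 (0.954 to 0.962). The difference between the stages was not tested, since each had 1 library, and gated nuclei held a median of 2 and 4 fragments at the marker loci.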

How the results depend on the processing

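No paired analysis was possible because each stage had 1 library. Of 57 alternative values, 22 stayed close (within the counting interval, or within 1.5 times for the number of regions), 32 moved further and 3 turned their direction. The median log2 ratio of members, -0.33, turned positive when scaled by the median ratio of shared regions (0.22), per nucleus without scaling (0.94) and without division by width (0.99). It was -0.58 for peaks of matched position, -0.35 without the deepest 5% of nuclei and -0.55 with binary counts. There were 2896 members when the late peaks had to overlap by 50% and 13239 when peaks had to be open in 1% of nuclei. With wider promoters 4.12% touched one, with protein-coding start sites 0.530%, and the distance to a start site of any gene was 21617 bp. Within 100000 bp, 15.4% of genes had a member. Thinned, the median shares of nuclei were 0.552% and 0.924%. Without the deepest 5% of nuclei they were 1.03% and 3.78%, and cut sites per kb and nucleus were 0.0495 and 0.0929. In the central 500 bp TTGGCA occurred in 54.96% of members and 28.7% of shared regions, and in the E16.5 peak in 31.4% and 13.3% (chosen after seeing the data). TGANTCA occurred in 15.7% of members and 16.9% of shared regions in 500 bp. In the E16.5 peak it was in 7.87% of shared regions, and outside promoters in 9.62% of them, where TTGGCA was in 15.8%. In nuclei of at least 2410 fragments the share in members was 1.95% and 3.64% of fragments. With the top 10% of nuclei gated, the ratio for cartilage loci was 0.957 and 0.874, for dermal fibroblast loci 0.974 and 0.927, and for tendon loci 1.01 at E16.5. Without the deepest 5% of nuclei the cartilage ratio was 0.932 at E14.5. The cause of these differences was not tested. Depth limits the gated values of single members, which held a median of 10 to 12 fragments in gated nuclei at E14.5.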
